A study of Mus musculus with 12 samples.

Results

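The respiratory chain and ATP synthase of the mouse heart were followed through the nuclear genes that encode their subunits. The members were taken by name: every probe whose platform gene symbol starts with Ndufa, Ndufb, Ndufc, Ndufs or Ndufv (assembly factors of the Ndufaf series left out), Uqcr, Cox4 to Cox8 or Atp5, or is Sdha, Sdhb, Sdhc, Sdhd or Cyc1. This gave 123 of 45281 probes and 80 of 19057 genes, each gene represented by its probe with the highest mean signal. By complex they were 34 genes of complex I, 4 of complex II, 8 of complex III, 17 of complex IV and 16 of the ATP synthase, and 1 pseudogene, Ndufs5-ps. Ndufa4 was placed with complex IV, where its protein is found. The rule reads gene names, and the mean signal over all 12 arrays chose the probe.

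Complex I oxidises NADH and complex II oxidises succinate, both pass electrons through ubiquinone to complex III, cytochrome c carries them to complex IV, and complex IV reduces oxygen. Complexes I, III and IV pump protons across the inner mitochondrial membrane, and the ATP synthase uses the gradient to make ATP. The beating heart depends on this pathway for most of its ATP, and cardiomyocytes are packed with mitochondria, so subunit transcripts are among the brightest of a heart array.

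Total RNA of hearts from mice of the mixed strain C57BL6/129Sv was measured on 12 Illumina arrays, 2 for each of 6 genotypes, with no treatment. Trex1 encodes a cytosolic DNA exonuclease, and Sting1 encodes STING, through which cytosolic DNA sets off type I interferon. The genotypes were Trex1 -/- (here Trex1 KO) with STING +/+, STING +/- or STING -/-, and Trex1 +/+ (here Trex1 WT) with STING +/+, STING +/- or STING -/-. The labels give no age, and do not say in so many words that the 2 arrays of a group came from separate animals, so each p-value measures only the spread between these arrays.

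Several arrays stood apart from the others or against their labels. The Trex1 probe that separated most arrays read 5.38 to 5.68 log2 units on 5 Trex1 KO arrays and 6.53 to 7.34 on the 6 Trex1 WT arrays, but 6.76 on Trex1 KO STING +/+ replicate 2. A second detected Trex1 probe read 6.79 to 7.84 on Trex1 KO and 7.37 to 8.16 on Trex1 WT arrays, and no source used here places either probe relative to the deletion. Sting1 read 4.67 to 5.02 on the STING -/- arrays, 4.79 to 5.75 on the STING +/- arrays, 7.03 and 6.94 on Trex1 KO STING +/+ and 5.71 and 5.15 on Trex1 WT STING +/+, so the probe does not separate STING +/- from STING -/-. The description label names another STING genotype than title, source and genotype for 7 of the 12 samples. Trex1 KO STING +/+ replicate 2 also had a low signal on 1 of the 2 detected Hnrnpa2b1 probes (5.91, against 8.47 on Trex1 WT STING +/- replicate 1 and 10.9 to 11.6 elsewhere). Xist was detected on 4 arrays: Trex1 KO STING +/+ replicate 2, both Trex1 WT STING +/+ and Trex1 WT STING -/- replicate 1. Atrial markers averaged 9.48 on Trex1 KO STING +/- replicate 2, 14.0 on Trex1 KO STING -/- replicate 2, and 12.9 and 13.8 on the Trex1 WT STING -/- arrays, against 6.35 to 7.60 on the other 8. The highest signal was 50315 to 55460.4 on the 6 arrays of Trex1 KO STING +/+, Trex1 WT STING +/+ and Trex1 WT STING +/-, and 60567.1 to 65008.3 on the 6 arrays of Trex1 KO STING +/-, Trex1 KO STING -/- and Trex1 WT STING -/-. No label or header names a batch, but each genotype lies wholly in 1 of these 2 sets, so that set and genotype cannot be told apart in a comparison that spans both.

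Of the 80 members, 77 passed the filter for detection (detection p under 0.05 on at least 2 arrays) and were tested, and 74 were detected on all 12 arrays. Ndufs1, the iron-sulphur core subunit of complex I, and Cox7b2 and Cox8c, isoforms known from testis, were detected on 0 arrays and not tested. Sdha, the flavoprotein of complex II, and Uqcrfs1, the Rieske iron-sulphur protein of complex III, were each detected on 2 arrays with mean log2 signals of 4.77 and 4.78, near those of undetected probes, so their differences say little about their transcripts. By contrast, 65 of the 77 lay among the brightest 10% of the 15561 features tested, and 27 had a mean deposited signal over 20000. The median member had a mean log2 signal of 13.8 in complex I, 12.0 in complex II, 14.1 in complex III, 14.8 in complex IV and 14.1 in the ATP synthase, where the log2 signal is the deposited signal after background correction and quantile normalization. These levels are of single probes and do not rank the genes by abundance.

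Trex1 KO was first set against Trex1 WT on STING +/+. Of 77 members, 30 were lower in Trex1 KO hearts and 0 were higher (limma over all 12 arrays, Benjamini-Hochberg adjusted p under 0.05 over all features). The background was 9.93% of all features lower and 11.8% higher, and 21.2% lower among the brightest 10%. The median log2 difference of the members was -0.65, against -0.04 over all features, and 71 of 77 differences were below 0 (53.2% of all features). On 56 members both Trex1 KO arrays lay below both Trex1 WT arrays (background 31.4%), and on 2 they lay above (background 26.6%). In bulk heart RNA, fewer cells of a type and less RNA per cell cannot be told apart. Beside this, the 15 cardiomyocyte markers averaged 13.8 and 13.7 on the Trex1 KO STING +/+ arrays and 14.5 and 14.4 on the Trex1 WT STING +/+ arrays, with 6 of 15 lower and 0 higher. The 10 leukocyte markers averaged 10.1 and 9.83 against 7.10 and 7.31, with 7 of 10 higher, and the 10 interferon-stimulated genes averaged 12.1 and 11.3 against 6.60 and 7.36, all 10 higher. Their part in the subunit differences was not tested. Leaving out Trex1 WT STING +/+ replicate 1 left 12 members past the threshold, with 3.80% of all features lower, and leaving out its replicate 2 left 15, of which 1 was higher, with 4.31% of all features lower. Without Trex1 KO STING +/+ replicate 1 the count was 24 lower and 2 higher, with 16.0% of all features lower and 17.2% higher.

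**Figure D1:**
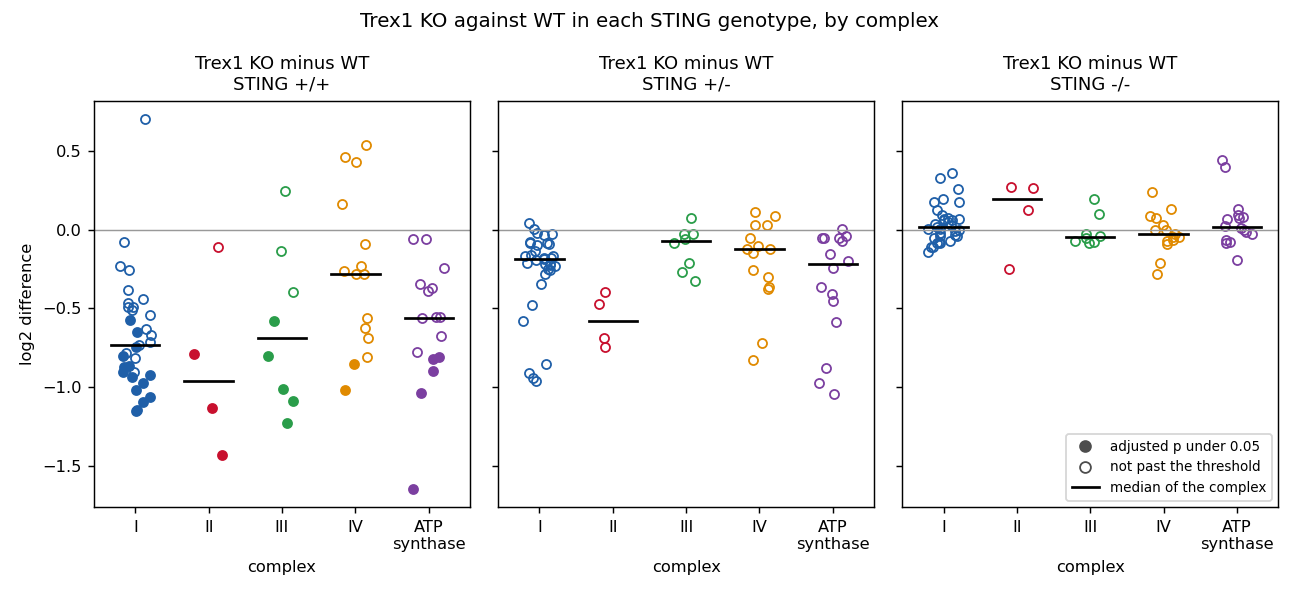
Log2 difference (Trex1 KO minus Trex1 WT, vertical axis) of each of the 76 tested subunit genes, by complex, for STING +/+, STING +/- and STING -/-. Filled points passed an adjusted p of 0.05, open points did not, and black bars are medians: on STING +/+ the medians lay between -0.28 (complex IV) and -0.96 (complex II), and on STING -/- no point passed.

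The complexes differed in how many members passed. Lower in Trex1 KO were 15 of 33 tested members of complex I (median log2 difference -0.73), 3 of 4 of complex II (-0.96), 5 of 8 of complex III (-0.69), 2 of 15 of complex IV (-0.28) and 5 of 16 of the ATP synthase (-0.56). In this order the shares were 45.5%, 75%, 62.5%, 13.3% and 31.25%. The background was 9.93% of all features lower, and 21.2% among the brightest 10%. The share of complex IV lay between these backgrounds, so its calls do not stand out from them. The shares of the complexes were not tested against each other. Complex IV and the ATP synthase also hold many of the brightest probes: 10 of the 27 members with a mean signal of 20000 or more were lower, with a median of -0.39, against 20 of the 50 below it, with a median of -0.75.

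Promoters of 6 genes that fell, at least 1 from each complex, are printed from RefSeq on GRCm38.p6 because these genes were lower on the same arrays. Each line runs 5′ to 3′ on the gene's strand over 300 bases, ending 50 bases past the start site, with motif matches in capitals where there are any.
Ndufv1: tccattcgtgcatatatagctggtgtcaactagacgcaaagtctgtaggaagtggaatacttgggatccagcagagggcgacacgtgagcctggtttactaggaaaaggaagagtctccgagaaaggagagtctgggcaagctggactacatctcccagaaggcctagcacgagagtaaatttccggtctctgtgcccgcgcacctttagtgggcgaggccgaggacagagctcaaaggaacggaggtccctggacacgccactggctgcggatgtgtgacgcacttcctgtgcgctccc
Ndufs4: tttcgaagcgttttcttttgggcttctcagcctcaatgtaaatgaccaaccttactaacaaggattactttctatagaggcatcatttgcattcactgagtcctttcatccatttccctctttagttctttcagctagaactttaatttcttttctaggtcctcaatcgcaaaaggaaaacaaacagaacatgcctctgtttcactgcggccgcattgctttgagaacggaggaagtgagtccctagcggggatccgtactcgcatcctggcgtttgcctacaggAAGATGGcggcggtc
Sdhb: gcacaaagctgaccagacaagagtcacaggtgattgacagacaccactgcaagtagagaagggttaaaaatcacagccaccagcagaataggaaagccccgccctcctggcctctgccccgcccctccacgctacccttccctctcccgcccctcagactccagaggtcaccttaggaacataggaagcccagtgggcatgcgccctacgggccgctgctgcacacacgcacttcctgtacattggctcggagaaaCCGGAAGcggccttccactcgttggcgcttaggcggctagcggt
Uqcrc1: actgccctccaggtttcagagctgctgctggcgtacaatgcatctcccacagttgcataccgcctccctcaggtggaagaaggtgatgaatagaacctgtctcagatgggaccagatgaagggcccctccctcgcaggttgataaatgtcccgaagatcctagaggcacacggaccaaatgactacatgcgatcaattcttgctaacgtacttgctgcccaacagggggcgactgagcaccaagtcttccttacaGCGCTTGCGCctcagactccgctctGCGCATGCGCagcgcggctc
Cox7a1: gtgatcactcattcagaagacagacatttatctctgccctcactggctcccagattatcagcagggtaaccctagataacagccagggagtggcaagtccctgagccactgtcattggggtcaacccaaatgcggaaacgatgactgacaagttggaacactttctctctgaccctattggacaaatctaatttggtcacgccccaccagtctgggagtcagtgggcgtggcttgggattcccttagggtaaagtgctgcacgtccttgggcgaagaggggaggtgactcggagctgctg
Atp5pb: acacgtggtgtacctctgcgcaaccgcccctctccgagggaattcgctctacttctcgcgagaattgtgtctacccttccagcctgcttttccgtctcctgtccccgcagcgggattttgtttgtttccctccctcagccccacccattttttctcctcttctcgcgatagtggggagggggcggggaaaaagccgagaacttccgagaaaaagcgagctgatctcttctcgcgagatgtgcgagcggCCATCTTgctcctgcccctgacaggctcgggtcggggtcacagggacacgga
Searched on both strands were GCGC, any base, then TGCGC (NRF1), CCGGAAG (ETS family, which includes GABP), AAGATGG (YY1), AAGGTCA (bound by the ERR nuclear receptors) and TGACGTCA (CREB). All are motifs known from promoters of respiratory genes. The NRF1 run is nearly its own reverse complement and can match both strands at 1 place. The Sdhb line, at chr4:140961021-140961320 on the plus strand, holds the ETS letters once. The Uqcrc1 line, at chr9:108936398-108936697 on the plus strand, holds 3 NRF1 matches, of which 2 are the same letters read on opposite strands. The Ndufs4 line, at chr13:114388045-114388344 on the minus strand, holds YY1 letters on the gene's strand, and the Atp5pb line, at chr3:105959214-105959513 on the minus strand, holds them on the opposite one. The Ndufv1 line, at chr19:4012706-4013005 on the minus strand, and the Cox7a1 line, at chr7:30183921-30184220 on the plus strand, hold none of the 5 motifs.

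Promoters were found for 65 subunit genes (70 promoters). The NRF1 letters were in 24.6% of these genes, against 5.19% of all 27025 genes with a promoter, and the ETS letters in 24.6% against 9.93%. YY1 letters were in 15.4% against 7.28%, ERR letters in 10.8% against 5.38%, and CREB letters in 6.15% against 2.03%. Within the members, NRF1 letters were in 6 of 26 members that were lower on STING +/+ and in 10 of the 39 others, ETS letters in 8 of 26 and 8 of 39, and YY1 letters in 5 of 26 and 5 of 39. ERR letters were in 1 of 26 and 6 of 39. A match is a run of letters in this window and not a shown binding site.

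Complex I takes electrons from NADH at its peripheral arm. Ndufv1, the flavoprotein that holds the NADH site, read 13.20 and 13.31 on the Trex1 KO STING +/+ arrays and 14.31 and 14.50 on the Trex1 WT STING +/+ arrays. Both Trex1 KO values lay below every other array, and the fitted difference was -1.15 ± 0.20 (limma, SE of the fit as for every ± below, n = 2 each, adjusted p = 0.00261), or 2.22-fold lower. Ndufs4, an accessory subunit whose loss causes Leigh syndrome in humans, read 12.80 and 12.49 in Trex1 KO and 13.80 and 13.78 in Trex1 WT hearts (-1.14 ± 0.21, adjusted p = 0.00363). Ndufb7 and Ndufa10, accessory subunits of the membrane arm, were lower by similar amounts (-1.09 ± 0.22, adjusted p = 0.00663, and -1.06 ± 0.19, adjusted p = 0.0036). Of these 4 genes, Ndufv1 and Ndufb7 passed the threshold under all 25 alternatives, and the other two under 24.

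The other 11 members of complex I that fell were Ndufa1, Ndufa5, Ndufa6, Ndufa9, Ndufab1, Ndufb3, Ndufb11, Ndufc2, Ndufs3, Ndufs7 and Ndufv2, with log2 differences of -0.58 to -1.02. They span both arms: Ndufs3, Ndufs7 and Ndufv2 are core subunits of the peripheral arm, and Ndufab1 is the mitochondrial acyl carrier protein. Of the 18 tested members that did not pass, 17 had differences below 0. The exception was Ndufb10, whose chosen probe read 9.22 on Trex1 WT STING +/+ replicate 1 and 13.05 on replicate 2. Its second probe gave -1.23 (adjusted p = 0.0141 over all probes), so the value of 0.70 ± 0.95 rests on 1 array. Ndufs5-ps, which the gene table lists as a pseudogene, read 12.11 and 12.57 in Trex1 KO and 13.18 and 13.02 in Trex1 WT hearts (-0.76 ± 0.34, adjusted p = 0.135).

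Complex II had the most negative median. Sdhb, its iron-sulphur subunit, read 12.54 and 12.47 on the Trex1 KO STING +/+ arrays and 13.75 and 13.52 on the Trex1 WT STING +/+ arrays. The groups did not overlap, and the difference of -1.13 ± 0.18 (adjusted p = 0.00158) was 2.19-fold. All 3 probes of Sdhb that were kept gave differences of -0.92 to -1.26. Sdhc, a membrane anchor that binds haem and ubiquinone, read 12.02 and 12.34 against 13.65 and 13.58 (-1.44 ± 0.23, adjusted p = 0.00195). Sdhd, the second anchor, read 10.24 and 10.71 against 11.34 and 11.19 (-0.79 ± 0.23, adjusted p = 0.0321). Sdhb and Sdhc passed under all 25 alternatives. Sdhd passed under 18 and lost its call without Trex1 KO STING +/+ replicate 1 or without either Trex1 WT STING +/+ array.

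**Figure D2:**
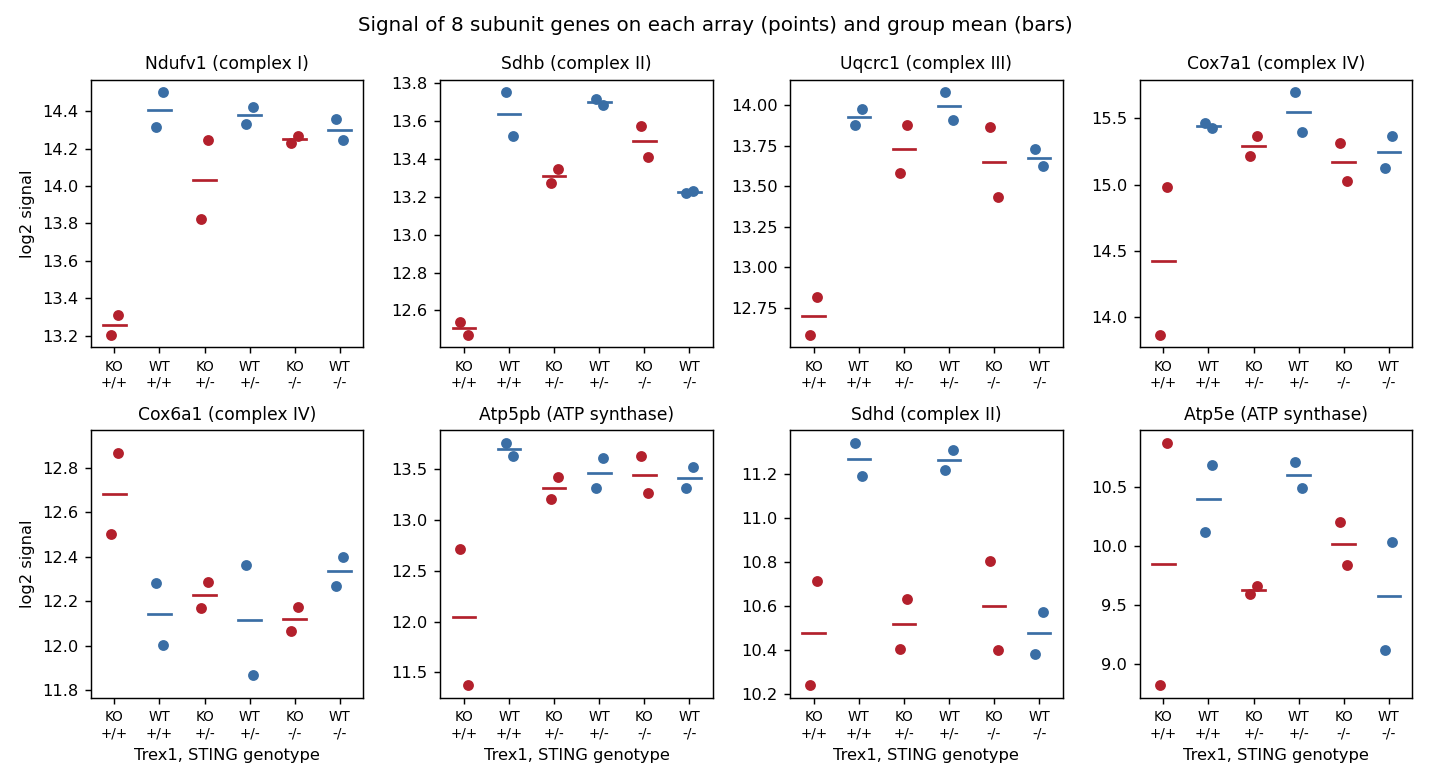
Log2 signal (vertical axis) of 8 subunit genes on each array, with the 6 genotypes along the horizontal axis, Trex1 KO in red and Trex1 WT in blue, points for arrays and bars for group means. Ndufv1, Sdhb and Uqcrc1 were lowest on both Trex1 KO STING +/+ arrays, Cox6a1 was highest there, and Atp5e read 8.81 on the first and 10.88 on the second.

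In complex III, which passes electrons from ubiquinol to cytochrome c, the core subunits Uqcrc1 and Uqcrc2 fell with cytochrome c1. Uqcrc1 read 12.58 and 12.82 on the Trex1 KO STING +/+ arrays and 13.88 and 13.98 on the Trex1 WT STING +/+ arrays (-1.23 ± 0.21, adjusted p = 0.00283). Uqcrc2 read 14.01 and 13.53 against 14.87 and 14.84 (-1.09 ± 0.20, adjusted p = 0.00351), and Cyc1, which encodes cytochrome c1, 12.47 and 12.70 against 13.53 and 13.67 (-1.01 ± 0.21, adjusted p = 0.0065). Each of the 3 genes had both Trex1 KO values below every other array. Uqcr11, a small subunit, read 13.71 and 14.35 against 14.84 and 14.83 (-0.81 ± 0.23, adjusted p = 0.0309). It passed under 18 of the 25 alternatives, and lost its call without Trex1 KO STING +/+ replicate 1 (-0.49) or without either Trex1 WT STING +/+ array. Uqcrh, the hinge protein, was also lower (-0.58 ± 0.17, adjusted p = 0.04). Uqcrc1 lies close to Trex1 on chromosome 9, with 4 protein-coding genes between them. Its difference between Trex1 KO and Trex1 WT was -0.27 ± 0.21 on STING +/- and -0.03 ± 0.21 on STING -/-, and the part of linkage was not tested.

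In complex IV, where 2 of 15 members passed, heart and striated muscle use their own forms of several subunits. Cox7a1, the heart and muscle isoform of subunit VIIa, read 13.87 and 14.98 on the Trex1 KO STING +/+ arrays and 15.46 and 15.42 on the Trex1 WT STING +/+ arrays (-1.02 ± 0.32, adjusted p = 0.0451). The first Trex1 KO array carried most of this, and without it the call was lost. Leaving out any array but Trex1 KO STING +/+ replicate 2 ended it. Cox7a2, the form found in most tissues, read 9.84 and 10.70 against 10.09 and 10.11 (0.16 ± 0.35, adjusted p = 0.782), with the Trex1 WT values between those of Trex1 KO.

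Of the other heart forms, Cox6a2 read 15.19 and 15.62 in Trex1 KO and 15.52 and 15.75 in Trex1 WT hearts (-0.23 ± 0.20, adjusted p = 0.453). Its ubiquitous counterpart Cox6a1 read 12.50 and 12.87 against 12.28 and 12.00 (0.54 ± 0.23, adjusted p = 0.118). Cox6a1 and Uqcrfs1 were the 2 members on which both Trex1 KO arrays lay above both Trex1 WT arrays, and neither passed the test. Cox8b read 13.91 and 14.94 against 15.14 and 15.09 (-0.69 ± 0.30, adjusted p = 0.132). Cox4i1, the main form of subunit IV, read 14.67 and 15.10 against 15.17 and 15.15 (-0.28 ± 0.20, adjusted p = 0.343), and Cox4i2, the form known from lung, 5.76 and 7.86 against 6.48 and 6.28. The testis form Cox6b2 likewise read 4.95 and 6.91 against 5.28 and 5.65, while Cox6b1 read 14.45 and 15.11 against 14.81 and 14.92. In both Cox4i2 and Cox6b2 the Trex1 KO arrays fell on either side of the Trex1 WT arrays.

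Ndufa4 was the other member of complex IV that passed, with 14.21 and 14.33 in Trex1 KO and 15.04 and 15.22 in Trex1 WT hearts (-0.86 ± 0.19, adjusted p = 0.0105). Cox7a2l, which links complexes III and IV into supercomplexes, read 11.34 and 11.47 against 11.83 and 12.10 (-0.56 ± 0.19, adjusted p = 0.0572), and Cox7b 9.40 and 10.67 against 10.91 and 10.77 (-0.81 ± 0.36, adjusted p = 0.139). Neither passed, though no array of Trex1 KO overlapped Trex1 WT for either gene.

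In the ATP synthase, Atp5pb, subunit b of the peripheral stalk, had the largest difference of any member, with 12.71 and 11.37 on the Trex1 KO STING +/+ arrays and 13.76 and 13.62 on the Trex1 WT STING +/+ arrays (-1.65 ± 0.36, adjusted p = 0.00974). Here the second Trex1 KO array was the lower one: the difference was -0.98 without it and -2.32 without the first, and the call was lost without Trex1 WT STING +/+ replicate 1. A second bright probe gave -1.88 (adjusted p = 0.0147 over all probes). Atp5a1, the alpha subunit of the catalytic head, read 12.01 and 12.14 against 13.20 and 13.02 (-1.04 ± 0.21, adjusted p = 0.00657). Atp5b, its catalytic partner beta and the brightest member, read 15.70 and 15.75 against 15.83 and 15.74 (-0.06 ± 0.17, adjusted p = 0.839). Its mean deposited signal was 56118, and on Trex1 WT STING +/+ replicate 1 (50315) and Trex1 WT STING -/- replicate 2 (62184.1) it was the highest signal of the array, so this probe may not be able to show a change.

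The gamma subunit of the central stalk, Atp5c1, read 13.79 and 13.88 against 14.61 and 14.70 (-0.82 ± 0.19, adjusted p = 0.0113), and Atp5h, subunit d of the peripheral stalk, 13.18 and 13.14 against 14.04 and 14.08 (-0.90 ± 0.20, adjusted p = 0.00959). Atp5j was the last of the 5 that fell (-0.81 ± 0.20, adjusted p = 0.0163). The genes for subunit c of the rotor ring gave -0.56 ± 0.28 for Atp5g2 (adjusted p = 0.178) and -0.35 ± 0.17 for Atp5g3 (adjusted p = 0.175). Atp5g2 read 11.02 and 11.92 in Trex1 KO and 12.04 and 12.02 in Trex1 WT hearts, and Atp5g3 15.42 and 15.22 against 15.65 and 15.69. All 16 tested ATP synthase members had differences below 0.

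Where a gene had both a probe over 20000 in mean signal and another between 1000 and 20000, the 2 could be set side by side. There were 7 such genes, and on 5 of them the less bright probe gave the more negative difference. The medians were -0.71 for the less bright and -0.47 for the bright probes. Cox5b showed the widest gap, with -0.26 on its bright probe and -0.92 on the other (adjusted p = 0.00771 over all probes). Over all 25 genes with at least 2 kept probes, 23 had 1 sign on all their probes, none had probes called in opposite directions, and on 13 only some probes passed. The counts by gene therefore depend on the probe chosen.

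The 2 Trex1 KO STING +/+ arrays differed in how many members were low. Replicate 1 lay a median of 0.85 log2 units below the Trex1 WT STING +/+ mean (-0.85), with 74 of 77 members below both Trex1 WT arrays, where 47.7% of all features were. Replicate 2 differed by -0.39, with 56 below and 13 above both, where 42.6% of all features were below and 44.7% above. Members on which the first array was low and the second high were Atp5e, Atp5mpl, Ndufa7, Ndufa11, Ndufb4, Uqcr10, Uqcrq, Cox4i2, Cox6b1, Cox6b2 and Cox7a2, 11 in all. Atp5e, the epsilon subunit, read 8.81 and 10.88 in Trex1 KO and 10.12 and 10.69 in Trex1 WT hearts, for a difference of -0.56 ± 0.55. All 15 tested complex IV members read higher on the second Trex1 KO array than on the first, as did 27 of 33 in complex I. The second array is also the one with the Trex1 signal in the range of Trex1 WT and the low Hnrnpa2b1 signal. With it and the other array of low Hnrnpa2b1 left out, 46 members were lower and 0 higher (8.81% of all features lower and 9.88% higher). Trex1 KO STING +/+ is then 1 array, replicate 1, which is assumed to vary like the other groups.

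**Figure D3:**
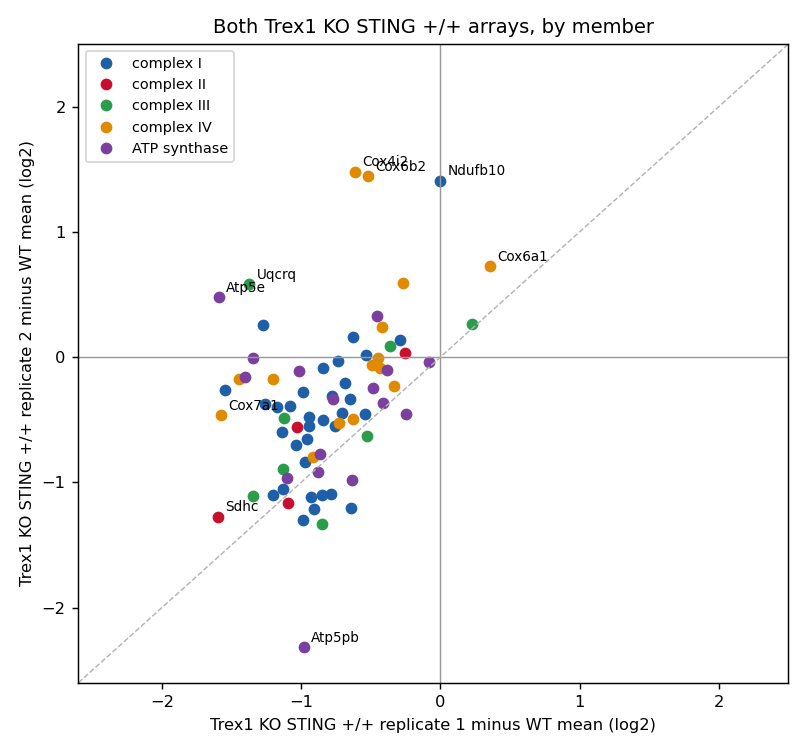
Each of the 76 tested subunit genes by its log2 difference from the Trex1 WT STING +/+ mean on Trex1 KO STING +/+ replicate 1 (horizontal axis) and replicate 2 (vertical axis), coloured by complex, with the dashed line where both would be equal. Most points lie in the lower left, and those above the line were lower on replicate 1.

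On STING +/-, with 1 working copy of Sting1, Trex1 KO was set against Trex1 WT in the same way. No member passed in either direction (limma, 0 lower and 0 higher of 77, background 0.129% lower and 1.14% higher), and 9 were lower and 0 higher at an unadjusted p under 0.05 (background 5.78% and 5.92%). The median log2 difference was -0.19, against -0.05 over all features, and 69 of 77 differences were below 0, where 55.6% of all features were. Complex II had the most negative median here as well, -0.58, and Sdhb, Sdhc and Sdhd had both Trex1 KO arrays below both Trex1 WT arrays (background 25.9%). So did Sdha, whose signal is near that of undetected probes. The medians of the other complexes were -0.18 (I), -0.07 (III), -0.12 (IV) and -0.22 (ATP synthase). Leaving out either Trex1 KO STING +/+ array, which enters only through the spread, brought 2 members past the threshold.

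Sdhd read 10.40 and 10.63 on the Trex1 KO STING +/- arrays and 11.22 and 11.31 on the Trex1 WT STING +/- arrays (-0.75 ± 0.23, adjusted p = 0.206). Ndufb9 gave -0.96 ± 0.28 (adjusted p = 0.182), Ndufb11 -0.85 ± 0.22 (adjusted p = 0.113) and Atp5md -1.04 ± 0.41 (adjusted p = 0.353). These 4 genes were named after their values were seen. Uqcrc2, by contrast, read 14.70 and 14.76 against 14.76 and 14.75 (-0.02 ± 0.20), and Ndufa9 gave 0.04 ± 0.18. This comparison spans the 2 sets of arrays that differ in their highest signal. On 15 of 77 members (19.5%, against 4.70% of all features) all 6 arrays of the set with the higher maximum, Trex1 WT STING -/- among them, lay below the 4 Trex1 WT arrays of the other set. Sdhd, Ndufb9, Ndufb11, Ndufb2, Atp5a1, Atp5k and Atp5md were among these 15, which is 7 of the 9 members with an unadjusted p under 0.05. Between the 2 full sets, with Trex1 KO STING +/+ included, 0 of 77 members lay wholly apart. Of all features, 0.315% lay wholly higher and 1.10% wholly lower in the set with the higher maximum. The Trex1 KO STING +/+ arrays are low on most members and belong to the other set, so this 0 says little about the sets.

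On STING -/-, no member differed between Trex1 KO and Trex1 WT (limma, 0 lower and 0 higher of 77, background 0.0129% lower and 0% higher), and 0 reached an unadjusted p under 0.05 in either direction (background 0.906% lower and 0.816% higher). The median difference was 0.00, with 38 of 77 below 0 (48.7% of all features), and single values ran from -0.28 to 0.45. Sdhb read 13.58 and 13.41 on the Trex1 KO STING -/- arrays and 13.22 and 13.23 on the Trex1 WT STING -/- arrays, a difference of 0.27 ± 0.18 with Trex1 KO the higher. Ndufv1 read 14.23 and 14.27 against 14.36 and 14.24, Uqcrc1 13.87 and 13.44 against 13.73 and 13.63, Cox7a1 15.31 and 15.03 against 15.12 and 15.37, and Atp5pb 13.62 and 13.26 against 13.31 and 13.52. For these 4 genes the arrays of the groups overlapped. Both Trex1 WT STING -/- arrays and Trex1 KO STING -/- replicate 2 are among those with raised atrial markers.

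**Figure D4:**
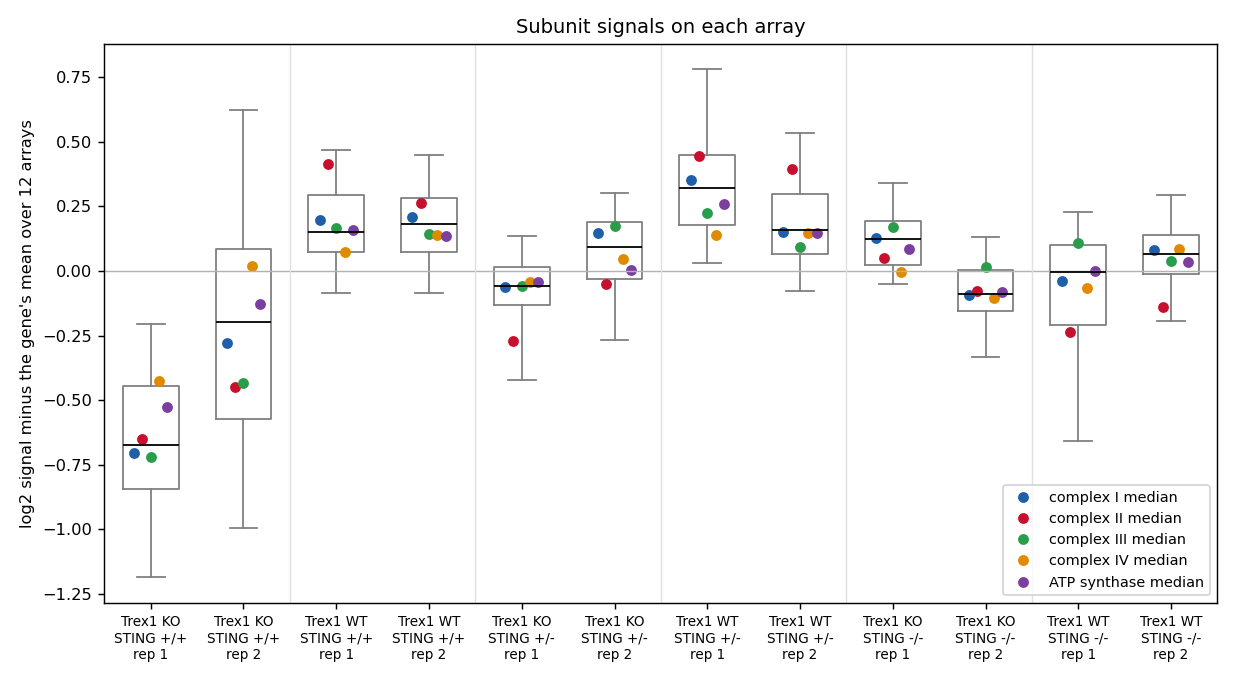
Log2 signal of the 77 tested members on each of the 12 arrays, as the deviation from the gene's own mean over all arrays (vertical axis). Boxes span the quartiles with the median in black, whiskers the 5th to 95th percentile, and coloured points are the medians of the complexes. The median of Trex1 KO STING +/+ replicate 1 (-0.67) is the lowest and that of replicate 2 (-0.20) the next lowest, and the boxes of both overlap.

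The difference between the Trex1 effects on STING +/+ and on STING -/- was tested directly. It was below 0 past the threshold for 13 of 77 members and above 0 for none (background 3.47% lower and 6.4% higher, and 9.12% lower among the brightest 10%), with 33 lower and 1 higher at an unadjusted p under 0.05 (background 11.9% and 12.9%). The 13 were 7 of complex I (Ndufa9, Ndufa10, Ndufb3, Ndufb7, Ndufs3, Ndufs4 and Ndufv1), Sdhb and Sdhc of complex II, Cyc1, Uqcrc1 and Uqcrc2 of complex III, and Atp5a1. No member of complex IV passed. Sdhb had the smallest p, with a difference of -1.40 ± 0.25 (adjusted p = 0.00745), and it stayed past the threshold when each array in turn was left out. With the probe of largest variance Sdhb lost this call. The count was 1 without Trex1 KO STING -/- replicate 1 or without any of the 4 arrays of Trex1 WT STING +/+ and STING -/-. In those fits 0.874% to 1.30% of all features were lower, so the members' share was near the background. The count was 8 without Trex1 KO STING -/- replicate 2 (2.45% of all features lower), 7 without either Trex1 WT STING +/- array (2.91%), and 23 without Trex1 KO STING +/+ replicate 2 (3.55%). Each of the 2 effects lies within 1 set of arrays, but not the same one. The effect on STING +/+ lies in the set with the lower maximum and that on STING -/- in the other. Their difference therefore spans both sets.

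Within Trex1 KO hearts, 22 of 77 members were higher on STING -/- than on STING +/+ and 0 were lower (limma, background 11.3% higher and 12.7% lower, and 20.6% higher among the brightest 10%). The median difference was 0.48. They were 12 of complex I, 2 of complex II, 4 of complex III, 1 of complex IV (Ndufa4) and 3 of the ATP synthase. Atp5pb was higher by 1.40 ± 0.36 (adjusted p = 0.0202), but by 0.73 and without a call when Trex1 KO STING +/+ replicate 2 was left out. Sdhc was higher by 1.13 ± 0.23 (adjusted p = 0.00653) and Atp5c1 by 1.02 ± 0.19 (adjusted p = 0.00348). Sdhc read 13.32 and 13.31 on the Trex1 KO STING -/- arrays and 12.02 and 12.34 on the Trex1 KO STING +/+ arrays. Without Trex1 KO STING -/- replicate 1 the count was 6, near the 6.03% of all features that were then higher. Without Trex1 KO STING +/+ replicate 1 it was 18 higher and 4 lower, with 16.4% of all features higher and 18.6% lower. The count was 0 with only the groups compared, where 2.45% of all features were higher. Without the 4 arrays of raised atrial markers, Trex1 KO STING -/- is 1 array, replicate 1. The members' share of calls there was near that of all features. In this comparison 4 of 15 cardiomyocyte markers were higher, 4 of 8 fibroblast markers were higher and 2 lower, and 7 of 10 leukocyte markers and 10 of 10 interferon-stimulated genes were lower. Their part in the subunit differences was not tested.

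STING +/- against STING +/+ in Trex1 KO gave 16 higher and 0 lower of 77 (limma, background 4.25% higher and 6.75% lower, and 12% higher among the brightest 10%), with a median of 0.44. Complex I held 9 of them, complex II 2, complex III 3, complex IV 1 and the ATP synthase 1. Uqcrc1 read 13.58 and 13.88 on the Trex1 KO STING +/- arrays and 12.58 and 12.82 on the Trex1 KO STING +/+ arrays (1.03 ± 0.21, adjusted p = 0.0148), and Ndufa10 14.14 and 14.40 against 13.42 and 13.12 (1.00 ± 0.19, adjusted p = 0.011). Here the count was 8 without Trex1 KO STING +/- replicate 1 (2.00% of all features higher), 0 without its replicate 2 (0.482%) and 10 without either Trex1 WT STING +/+ array (2.94%). It was 16 higher and 3 lower without Trex1 KO STING +/+ replicate 1, with 11.9% of all features higher and 14.5% lower. All 16 calls were lost with array weights and with only the groups compared, where 0.643% and 0% of all features were higher. Without the atrial arrays, Trex1 KO STING +/- is 1 array, replicate 1. The calls were lost there too, as were nearly all higher calls over all features. In this comparison 6 of 10 leukocyte markers were lower and 4 of 15 cardiomyocyte markers higher, and their part was not tested. This comparison and the one before it share the Trex1 KO STING +/+ arrays with each other and with the comparison against Trex1 WT, so they are not independent of it, and both span the 2 sets of arrays. Between STING -/- and STING +/- in Trex1 KO, which lie in 1 set, no member passed (limma, 0 of 77, background 0.141% higher and 1.21% lower), 0 had an unadjusted p under 0.05 (background 4.03% higher and 5.61% lower), and the median was 0.01. Over all features this comparison called 189 lower, and the interferon-stimulated list was lower on STING -/- for 9 of 10 genes.

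Among Trex1 WT hearts, STING genotype made no called difference. STING -/- against STING +/+ gave 0 of 77 (limma, background 0.0193% lower and 0.0386% higher), with 7 lower and 0 higher at an unadjusted p under 0.05 (background 4.56% and 4.82%) and a median of -0.13. Those 7 were Ndufb5, Ndufb9, Ndufb11, Sdhb, Sdhd, Atp5a1 and Atp5md. Sdhd read 10.38 and 10.57 on the Trex1 WT STING -/- arrays and 11.34 and 11.19 on the Trex1 WT STING +/+ arrays (-0.79 ± 0.23, adjusted p = 0.296), and the groups did not overlap. STING +/- against STING +/+ gave 0 of 77 (limma, background 0% lower and 0.0129% higher), 0 at an unadjusted p under 0.05 (background 1.49% lower and 1.99% higher) and a median of 0.07. This pair lies in 1 set of arrays, and the pair before it spans both.

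Other genes of the pathway, chosen by role, were read beside the subunits for Trex1 KO against Trex1 WT on STING +/+, where 9.93% of all features were lower. Of the electron carriers and exporters of ATP, 6 of 7 tested were lower and 0 higher (median -1.21): Etfdh (-1.82 ± 0.36, adjusted p = 0.00582) and Etfa (-1.33 ± 0.22), which pass electrons from fatty acid oxidation to ubiquinone, the mitochondrial creatine kinase Ckmt2 (-1.23 ± 0.28), and also Cycs, Etfb and Slc25a3. The exception was Slc25a5, an adenine nucleotide carrier, at 0.32 ± 0.19 (adjusted p = 0.248). Of the regulators of mitochondrial biogenesis, 8 of 19 were lower and 0 higher (median -0.76). Ppara, the fatty acid receptor, differed by -2.50 ± 0.34, and the coactivators Ppargc1b and Ppargc1a by -1.85 ± 0.41 and -1.58 ± 0.35. Nrf1 did not move with them (0.01 ± 0.27, adjusted p = 0.99).

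Of the assembly factors, those that were lower numbered 4 of 13 for complex I (median -0.55), 1 of 4 for complex II (-0.33), 2 of 5 for complex III (-0.21), 3 of 18 for complex IV (-0.25) and 0 of 2 for the ATP synthase (-0.45). The largest falls were Tmem186 (-1.10 ± 0.23), Foxred1 and Acad9 (-0.83 ± 0.22) for complex I, Sdhaf4 (-0.76 ± 0.24) for complex II, Uqcc1 (-1.06 ± 0.21) and Ttc19 (-0.97 ± 0.19) for complex III, and Coa7 (-1.82 ± 0.22) and Cox10 (-1.06 ± 0.21) for complex IV. Cox19, a copper chaperone for complex IV, was the 1 assembly gene that was higher (0.99 ± 0.26, adjusted p = 0.0234). For the ATP synthase, Tmem70 differed by -0.62 ± 0.26 and Atpaf2 by -0.28 ± 0.29. Of 18 genes for the mitochondrial membranes, import and chaperones, 7 were lower and 0 higher (median -0.64). Among them were the fusion protein Opa1 (-2.58 ± 0.67), citrate synthase Cs (-1.41 ± 0.20) and the cristae protein Immt (-1.08 ± 0.20).

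Of the 13 subunits that the mitochondrial genome itself encodes, 8 had a tested probe. Nd4l of complex I read -1.71 ± 0.33 (adjusted p = 0.00474) and Nd6 -0.90 ± 0.23 (adjusted p = 0.0201), and both fell. The other 6 did not pass, from -0.51 ± 0.20 for Co2 to 0.04 ± 0.17 for Cytb, and the median was -0.47. A lower level was not confined to Trex1 KO. The 8 averaged 12.4 and 12.4 on Trex1 KO STING +/+, 12.9 and 12.9 on Trex1 WT STING +/+, and 12.5 and 12.5 on Trex1 WT STING -/-. For STING -/- against STING +/+ the median was -0.42 in Trex1 WT, with 0 past the threshold, and 0.06 in Trex1 KO. Both of these comparisons span the 2 sets of arrays. None of these pathway lists held a gene past the threshold between Trex1 KO and Trex1 WT on STING +/- or on STING -/-.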

How the data were processed

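Total heart RNA was amplified to biotinylated cRNA and hybridised to Illumina bead arrays, per the labels' protocols; no source used here names the scanner software or the authors' processing steps. The deposited table held intensity per probe and array, which the authors named non-normalized, and beside each a score from 0 to 1. The deposited score is headed as a detection p-value but rises with the signal (rank correlation 0.979 to 0.988), so detection p was taken as 1 minus the score. The authors' processed log2 values, deposited per probe and centred over the 12 samples, served only as an alternative. Quantile-normalized log2 signals centred in the same way differed from them by at most 0.00522 on probes of higher mean signal. Dimmer probes were not compared.

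The neqc function of limma 3.58.1 (R 4.3.3, offset 16) corrected background and applied quantile normalization. A probe was kept if 2 or more arrays gave it a detection p below 0.05 (22810 of 45281). Each gene was represented by its kept probe with the highest mean signal, and each kept probe without 1 gene symbol stood alone. This gave 15561 features, of which 12080 had 1 gene symbol. Every share of all features includes the rest. Of all probes, 34885 had 1 gene symbol, 18 several and 10378 none. One limma fit over 12 arrays and 6 genotype means (6 residual degrees of freedom) gave 9 contrasts, each with Benjamini-Hochberg adjustment over all features and a threshold of 0.05; ± is the standard error of that fit. The median signal was 80.0 to 90.3 and 38.3 to 44.7% of probes were detected per array; precision is limited by how few arrays there are. Members named with values were up to 4 per complex with the largest differences past the threshold, up to 3 in each other contrast, paired isoforms and members not detected; others are said to have been named after their values were seen or illustrate a count. The members and gene lists were chosen with earlier results of these data known. Alternatives covered normalization, filters, probe choice, array weights, the arrays fitted, terms for Xist and atrial markers, and leaving out each array. Figures were drawn with matplotlib 3.10.9 under Python 3.11.15.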

Additional observations from a re-analysis of the deposited data

Results flagged for a closer look

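By a limma test of the difference, the Trex1 effect (Trex1 KO minus Trex1 WT) differed between STING +/+ and STING -/- for 13 members. In each, the effect was more negative on STING +/+. The background was 3.47% of all features lower, and 9.12% among the brightest 10%, where 65 of the 77 members lay. Of the 13 calls, 4 stayed with array weights, 2 with only the groups compared and 1 with a term for atrial markers. In those fits 2.42%, 2.08% and 1.21% of all features were lower, and all 13 kept their sign. With only the groups compared the sign was fixed, since the difference itself does not change there. Sdhb apart, the calls also depended on single arrays of the groups compared, and the call of Sdhb was lost with the probe of largest variance. In complex II the difference of effects was -1.40 ± 0.25 for Sdhb (adjusted p = 0.00745) and -1.18 ± 0.33 for Sdhc (adjusted p = 0.0491). In complex III it was -1.21 ± 0.29 for Cyc1 (adjusted p = 0.0286), -1.20 ± 0.30 for Uqcrc1 (adjusted p = 0.0336) and -1.19 ± 0.28 for Uqcrc2 (adjusted p = 0.0255). The 7 of complex I were Ndufs3 (-1.17 ± 0.27), Ndufb7 (-1.14 ± 0.32), Ndufs4 (-1.14 ± 0.29), Ndufv1 (-1.10 ± 0.28), Ndufb3 (-1.08 ± 0.27), Ndufa10 (-1.03 ± 0.27) and Ndufa9 (-0.95 ± 0.26). Atp5a1 of the ATP synthase gave -1.17 ± 0.30 (adjusted p = 0.0361).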

How the results depend on the processing

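On STING +/+, 30 members passed between Trex1 KO and Trex1 WT; the count was 19 with array weights, 5 with only the groups compared, 46 without the 2 arrays of low Hnrnpa2b1 and 15 without the 4 arrays of raised atrial markers, and leaving out 1 array at a time gave 12 to 44. All 30 kept their sign in every alternative run. Where a run changed only the spread or left out arrays of other groups, the sign was fixed, since the difference itself does not change. With a term for Xist, 23 kept their call. Over all features, 9.93% were lower in the main fit, 10.4% with that term, 5.13% with array weights and 2.96% with only the groups compared. On STING +/- the count of 0 was 1 with the probe of largest variance, and 0 to 2 leaving out 1 array. The difference of effects (13) gave 5 with array weights, 2 with only the groups compared, 21 without the low-Hnrnpa2b1 arrays, 1 with a term for atrial markers, and 1 to 23 leaving out 1 array. STING -/- against STING +/+ in Trex1 KO (22) gave 8 with array weights, 0 with only the groups compared, 2 without the atrial arrays, and 6 to 27 leaving out 1 array. STING +/- against STING +/+ in Trex1 KO (16) gave 25 with the authors' processed values, 0 with array weights, 0 with only the groups compared, 10 without the low-Hnrnpa2b1 arrays, 0 without the atrial arrays, 4 with a term for Xist, and 0 to 19 leaving out 1 array. In Trex1 WT, STING -/- against STING +/+ (0) gave 1 with array weights, and STING +/- against STING +/+ (0) gave 0 to 1 leaving out 1 array. Sdhb, STING +/- against STING +/+ in Trex1 KO, reversed to -0.032 (limma, adjusted p = 0.956) with the probe of largest variance. The share of all features called moved as well. A count given without that share does not tell a change in the members from one over all features. For the difference of effects, 3.47% were lower in the main fit and 2.42% with array weights. It was 2.08% with only the groups compared and 1.21% with a term for atrial markers, both near the members' share. STING -/- against STING +/+ in Trex1 KO had 11.3% higher in the main fit and 4.67% with array weights. For STING +/- against STING +/+ in Trex1 KO, 4.25% were higher in the main fit. It was 4.72% with the authors' processed values and 2.03% with a term for Xist. Fewer arrays leave fewer degrees of freedom, and otherwise the cause was not tested. The atrial arrays could not be left out where a group holds no others (STING -/- in Trex1 WT), and a beadchip block was not run, since the headers name none. No paired analysis was possible because the labels give no replicate numbers shared between groups. With 2 arrays a group, small differences were hard to resolve. Some subunits had probes near the top of the signal range, and whether this narrowed their differences was not tested.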
